A study of Homo sapiens with 18 samples.

Results

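The MYC family and the MAX network were followed as 10 genes chosen by name: *MYC*, *MYCN*, *MYCL*, *MAX*, *MXD1*, *MXD3*, *MXD4*, *MXI1*, *MNT* and *MLX*. All 10 were found by symbol among the 20329 genes of the deposited count tables, and all 10 passed the filter on low counts in every comparison. RNA was measured in 18 samples of HAP1, a near-haploid human cell line derived from the chronic myeloid leukaemia line KBM-7. They fall into 6 groups of 3: wild-type control A, *ΔWAPL* clone 3.3 (WaplKO_3.3), *ΔSCC4* (SCC4KO), *ΔWAPL*/*ΔSCC4* (DKO_3.3), wild-type control B and *ΔWAPL* clone 1.14 (WaplKO_1.14). WAPL releases cohesin from DNA, and SCC4, encoded by *MAU2*, helps to load it. Per the study's methods, *WAPL* was disrupted by a blasticidin cassette and *SCC4* by a puromycin cassette, *SCC4* was knocked out in *ΔWAPL* cells to make the double mutant, and all groups share a parental line with mutant p53. By the labels each *ΔWAPL* group is 1 clone, the double mutant carries the number 3.3, and no clone is named for *ΔSCC4*. The genotype and other properties of a clone therefore cannot be told apart. Clone 1.14 is compared with control B and the other mutants with control A, a pairing taken from the run number and lane in the names of the deposited files. The labels do not say that the 3 samples of a group were separate cultures, so p-values measure only the spread between these samples.

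MYC, MYCN and MYCL are transcription factors that bind DNA at the E-box when paired with MAX. MXD1, MXD3, MXD4, MXI1 and MNT compete with them for MAX and recruit SIN3 and HDAC co-repressors, so that MYC and the MXD proteins act in opposite directions on shared targets such as ribosome biogenesis genes. MLX is a MAX-like partner of the glucose-sensing factors MondoA (*MLXIP*) and ChREBP (*MLXIPL*) and also pairs with MXD1, MXD4 and MNT. *MYC* is classically described as a gene under the control of distant enhancers and responsive to the cohesin complex.

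RefSeq promoter windows of GRCh38.p14, from 250 bases before to 50 after each start site, were given for 9 of the members, with 12 windows in all. The member without a window was *MYC*, so its promoter was not searched. The E-box CACGTG, which reads alike on both strands, was found in 3 of them, those of *MXD4*, *MNT* and *MLX*, and in 7.3% of all 35116 promoter windows. In *MXD4* its first base lies 238 bases before the start. The windows of the 3 members with the clearest changes are printed below 5′ to 3′ on the strand of the gene, with the E-box in capitals. They are chr4:2262060-2262359 on the minus strand for *MXD4*, chr1:39901868-39902167 on the minus strand for *MYCL* and chr2:69914859-69915158 on the plus strand for *MXD1*.
MXD4: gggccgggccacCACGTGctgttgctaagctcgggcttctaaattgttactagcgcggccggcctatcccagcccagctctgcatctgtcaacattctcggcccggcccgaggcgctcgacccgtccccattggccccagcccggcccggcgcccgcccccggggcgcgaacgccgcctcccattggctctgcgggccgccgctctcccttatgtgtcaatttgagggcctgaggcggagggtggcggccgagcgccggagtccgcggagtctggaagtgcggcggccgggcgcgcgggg
MYCL: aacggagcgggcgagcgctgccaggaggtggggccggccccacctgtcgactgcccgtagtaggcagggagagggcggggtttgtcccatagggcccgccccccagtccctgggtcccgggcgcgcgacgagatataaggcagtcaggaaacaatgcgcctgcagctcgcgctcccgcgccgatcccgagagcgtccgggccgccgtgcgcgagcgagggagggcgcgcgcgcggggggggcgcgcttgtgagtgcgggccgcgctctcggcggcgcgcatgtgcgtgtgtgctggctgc
MXD1: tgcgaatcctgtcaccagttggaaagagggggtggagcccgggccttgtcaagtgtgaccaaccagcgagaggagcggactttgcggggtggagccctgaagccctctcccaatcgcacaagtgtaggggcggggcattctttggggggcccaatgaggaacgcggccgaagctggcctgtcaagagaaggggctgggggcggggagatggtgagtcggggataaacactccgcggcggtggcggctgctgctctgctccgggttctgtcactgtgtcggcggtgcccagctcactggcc
The *MXD4* window holds 1 E-box and the other two none. The GC box GGGCGG, searched on both strands, was found once in the *MXD4* window and 2 times in each of the *MYCL* and *MXD1* windows, and in 45.0% of all promoter windows. The G and C content of these windows was 72.3% in *MXD4*, 74.7% in *MYCL* and 65.0% in *MXD1*.

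Between 10007646 and 20711127 reads per sample fell on genes, with a median of 16177867.5. Values are CPM, counts relative to library size after TMM scaling, and means are given with the SD over 3 samples. *MAU2* was at 0.70 CPM in *ΔSCC4* and 0.93 CPM in *ΔWAPL*/*ΔSCC4*, against 65.57 CPM in control A. *WAPL* stood at 43.66 CPM in clone 3.3, 45.5 CPM in *ΔWAPL*/*ΔSCC4* and 41.27 CPM in clone 1.14, against 99.24 CPM in control A and 120.6 CPM in control B. The blood markers *PTPRC*, *CD34*, *SPI1* and *GATA1* were each at 0.1229 CPM or less in all 18 samples. *CD33* was at 0.4838 CPM or less, while *RUNX1* ranged from 3.771 to 16.48 CPM. The mean exon GC content of the counted reads ranged from 47.42% to 49.33% between samples.

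Per kb of exon, where genes can be compared with each other, *MYC* stood far above the other members. Over the 6 controls its mean was 105.3 CPM per kb, at the 97.73rd percentile of 12817 genes. *MLX* followed at 19.82 CPM per kb, *MAX* at 12.1, *MXI1* at 7.866 and *MYCL* at 6.703. *MNT*, *MXD4*, *MXD3* and *MXD1* lay between 4.228 and 2.222 CPM per kb, and *MYCN* was lowest at 1.264, the 20.4th percentile. Exon lengths are unions over all transcripts of the current annotation, so these levels are approximate.

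**Figure D1:**
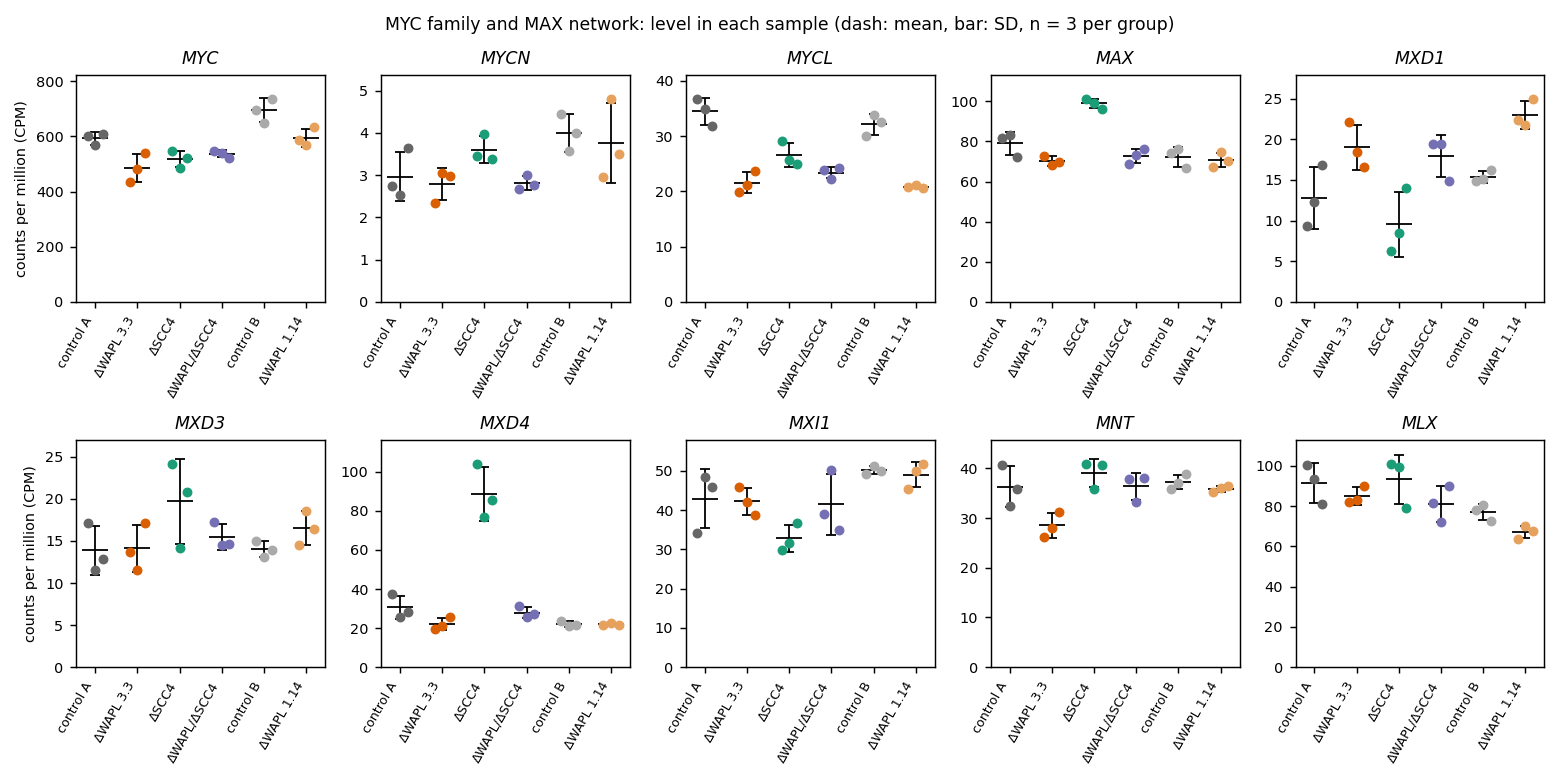
CPM (vertical axis, from 0) of the 10 members in each of the 18 samples, by genotype group (horizontal axis). Points are samples, dashes are means and bars are SDs over 3 samples. The 3 *ΔSCC4* samples of *MXD4* lie between 76.87 and 103.9 CPM, above all other samples, and the *MYCL* samples of both *ΔWAPL* clones lie below all 6 controls.

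*MYC* (ENSG00000136997, GRCh37 chromosome 8, 128747680 to 128755197, plus strand) encodes the broadly expressed member of the family. Its CPM was 600.7, 566.9 and 609 in control A and 435.3, 483.2 and 538.4 in clone 3.3. In set B it was 696.9, 649 and 735.7 in control B and 585.1, 567.4 and 632 in clone 1.14. In both sets every *ΔWAPL* sample lay below every control of its set. Over both clones *MYC* fell by 0.26 on the log2 scale (SE 0.06, 0.838-fold, adjusted p = 0.01088 from edgeR, by its quasi-likelihood test). Within clones the log2 difference was -0.30 in clone 3.3 (adjusted p = 0.2474 from edgeR) and -0.23 in clone 1.14 (adjusted p = 0.04457 from edgeR), and only the second passed the threshold. A correction for exon GC content ended the call over both clones, with a log2 difference of -0.18 and an adjusted p of 0.06349 from edgeR, and in clone 1.14 the call was lost under 10 of 15 alternatives. In clone 3.3 it passed in one fit over all 18 samples (adjusted p = 0.03052 from edgeR) and with all 6 controls (adjusted p = 0.02875 from edgeR). Of 4 epithelial markers 3 were tested over both clones. *EPCAM* and *KRT8* fell, with log2 differences of -2.72 and -1.62 (adjusted p = 5.341e-05 and 7.011e-06 from edgeR). *EPCAM* was near the floor, at 0.06035 to 1.758 CPM over the 18 samples. *KRT18* had a log2 difference of -0.18 (adjusted p = 0.2122 from edgeR), and *CDH1* was at 0.2051 CPM or less in all samples. Their summed CPM was 59.95 to 65.99 in clone 3.3 against 57.87 to 81.93 in control A, and 41.64 to 47.61 in clone 1.14 against 56.79 to 72.27 in control B. The part of these markers in the values of *MYC*, *MYCL* and *MXD1* in *ΔWAPL* cells was not tested.

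In *ΔSCC4* cells *MYC* was at 546.2, 486.3 and 520.7 CPM and in *ΔWAPL*/*ΔSCC4* cells at 547.1, 539.5 and 522.1 CPM. All 6 samples lay below the control A samples, but the log2 differences of -0.21 and -0.15 did not pass the threshold (adjusted p = 0.3092 and 0.5476 from edgeR). From high to low the groups were control B (693.9 ± 43.4), clone 1.14 (594.8 ± 33.4), control A (592.2 ± 22.3), *ΔWAPL*/*ΔSCC4* (536.2 ± 12.8), *ΔSCC4* (517.7 ± 30.1) and clone 3.3 (485.6 ± 51.6 CPM; SD, n = 3). The samples of clone 1.14 and control A overlap, as do those of *ΔWAPL*/*ΔSCC4* with *ΔSCC4* and of *ΔSCC4* with clone 3.3. The controls of the 2 sets did not overlap for *MYC*, although their log2 difference of 0.22 did not pass the threshold (adjusted p = 0.4634 from edgeR). Such a gap between the sets of controls was seen for 4 of the 10 members and for 19.4% of all genes, and none of the members passed the test (0 with edgeR, 0 with DESeq2, 1 at an unadjusted p below 0.05), beside 0.64% of all genes.

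*MYCL* (ENSG00000116990, chromosome 1, 40361100 to 40367928, minus strand), the family member first found in lung cancer, gave the most repeatable change with *WAPL*. Its CPM was 36.73, 34.84 and 31.88 in control A, 19.83, 21.22 and 23.73 in clone 3.3, 30.08, 33.75 and 32.47 in control B and 20.83, 21.19 and 20.58 in clone 1.14. No *ΔWAPL* sample reached the lowest control of either set. Over both clones *MYCL* fell by 0.65 on the log2 scale (SE 0.07, 0.637-fold, adjusted p = 1.019e-05 from edgeR). The log2 difference was -0.69 in clone 3.3 (SE 0.15, adjusted p = 0.008185 from edgeR) and -0.63 in clone 1.14 (SE 0.07, adjusted p = 0.001026 from edgeR). In clone 3.3 the call was lost without replicate 2 of that clone, with an adjusted p of 0.05734.

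*MYCL* also fell in *ΔWAPL*/*ΔSCC4* cells, which held 23.84, 22.19 and 24.15 CPM. The log2 difference from control A was -0.56 (SE 0.12, adjusted p = 0.01529 from edgeR). Leaving out replicate 2 of control A, or any of the 3 double mutant samples, moved the adjusted p to between 0.05953 and 0.08923. In *ΔSCC4* cells *MYCL* was at 29.13, 25.76 and 24.95 CPM, again below all control A samples, with a log2 difference of -0.39 that did not pass the threshold in the fit of these groups alone (adjusted p = 0.1225 from edgeR). It passed in one fit over all 18 samples (adjusted p = 0.01078 from edgeR), with the GC correction (adjusted p = 0.004467 from edgeR) and with a replicate block, given further on. Its level did not differ detectably between *ΔWAPL*/*ΔSCC4* and clone 3.3, where the log2 difference was 0.12 (SE 0.13).

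*MYCN* (ENSG00000134323, chromosome 2, 16080672 to 16087129, plus strand), the member known from neuroblastoma, was near the floor. Its counts were 39 to 81 reads per sample, and its group means lay between 2.792 and 4.001 CPM. It passed no test in any of the comparisons. At such counts its standard errors were 0.15 to 0.29 on the log2 scale, so a difference of the size seen for *MYC* could not be shown.

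*MAX* (ENSG00000125952, chromosome 14, 65472892 to 65569413, minus strand) encodes the shared partner of the MYC and MXD proteins. It was at 81.47, 83.31 and 72.23 CPM in control A, 72.71, 68.2 and 69.85 CPM in clone 3.3, 101.2, 99.27 and 96.28 CPM in *ΔSCC4*, and 68.79, 73.13 and 76.13 CPM in *ΔWAPL*/*ΔSCC4*. The *ΔSCC4* samples were above all other samples of the series. Against control A the log2 difference was 0.31 (SE 0.12), which did not pass the threshold in the fit of these groups alone (adjusted p = 0.1633 from edgeR). It passed in one fit over all 18 samples (adjusted p = 0.01193 from edgeR), with the GC correction (adjusted p = 0.01226 from edgeR) and with the replicate block. Against *ΔSCC4*, *MAX* was lower in *ΔWAPL*/*ΔSCC4* by 0.45 on the log2 scale (adjusted p = 0.01068 from edgeR), a call lost without replicate 1 of the double mutant (adjusted p = 0.0885). Over both *ΔWAPL* clones the log2 difference was -0.10 (SE 0.07), and it did not pass the threshold. Exons of *MAX* overlap those of *FNTB*, which encodes a farnesyltransferase subunit, on the opposite strand, and with the strand setting of the counting not given, reads of both genes cannot be told apart there. *FNTB* was at 34.52, 33.91 and 26.22 CPM in control A, 45.32, 43.88 and 36.56 CPM in *ΔSCC4* and 24.52, 21.57 and 26.47 CPM in *ΔWAPL*/*ΔSCC4*. Like *MAX* it was highest in *ΔSCC4*, with a log2 difference from control A of 0.40 that passed with the replicate block (adjusted p = 0.0008418 from edgeR). In *ΔWAPL*/*ΔSCC4* cells *FNTB* stood lower than in *ΔSCC4* by 0.79 on the log2 scale (adjusted p = 0.0005055 from edgeR). Its part in the values of *MAX* was not tested.

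*MXD1* (ENSG00000059728, chromosome 2, 70124820 to 70170077, plus strand), an antagonist of MYC associated with differentiation, was the 1 member that rose with loss of WAPL. Its CPM was 9.313, 12.27 and 16.87 in control A, 22.08, 18.39 and 16.55 in clone 3.3, 14.84, 15.13 and 16.26 in control B and 22.37, 21.73 and 24.98 in clone 1.14. The groups overlap in set A and are apart in set B. The summed CPM of 6 blood markers, nearly all of it *RUNX1*, also stood at 10.57 to 13.95 in clone 3.3 and 15.37 to 16.54 in clone 1.14, against 5.536 to 7.926 in control A and 6.387 to 7.766 in control B, and its part in the result was not tested. Over both clones it rose by 0.57 on the log2 scale (SE 0.12, 1.49-fold, adjusted p = 0.003835 from edgeR). The log2 difference was 0.55 in clone 3.3 (SE 0.20, adjusted p = 0.1204 from edgeR) and 0.57 in clone 1.14 (SE 0.08, adjusted p = 0.003381 from edgeR). The call in clone 1.14 was lost in one fit over all 18 samples (log2 difference 0.58, adjusted p = 0.1004 from edgeR). Without replicate 3 of control A the difference in clone 3.3 passed (0.80, adjusted p = 0.01532 from edgeR), and it also passed with the GC correction (adjusted p = 0.03062 from edgeR). It was at 19.46, 19.42 and 14.93 CPM in *ΔWAPL*/*ΔSCC4* and at 6.242, 8.45 and 13.96 CPM in *ΔSCC4*. The double mutant was higher than *ΔSCC4* by 0.90 on the log2 scale (SE 0.22, adjusted p = 0.006116 from edgeR), which was lost without replicate 2 of *ΔSCC4* (adjusted p = 0.07372). Exons of *MXD1* overlap *SNRNP27* on the same strand, so reads there could not be assigned to either gene alone.

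*MXD4* (ENSG00000123933, chromosome 4, 2249159 to 2263836, minus strand), an MXD protein that represses through SIN3, showed the largest difference of any member. It was at 37.38, 25.84 and 28.49 CPM in control A and at 103.9, 76.87 and 85.5 CPM in *ΔSCC4*, with no overlap. It was at 19.64, 21.29 and 25.65 CPM in clone 3.3 and at 31.13, 25.5 and 27.26 CPM in *ΔWAPL*/*ΔSCC4*. Of these 4 genotypes of set A, *ΔSCC4* stood apart above the others and the double mutant overlapped control A. Clone 3.3 lay below control A without overlap, with a log2 difference of -0.48 that did not pass the threshold (adjusted p = 0.1448 from edgeR). That difference passed in one fit over all 18 samples and with the GC correction (adjusted p = 0.03978 and 0.01267 from edgeR). In *ΔSCC4* *MXD4* rose by 1.53 on the log2 scale (SE 0.18, 2.88-fold, adjusted p = 0.000394 from edgeR). Control B held 23.66, 20.98 and 21.67 CPM and clone 1.14 held 21.42, 22.68 and 21.54 CPM, which overlap. Control B also lay below control A without overlap, with a log2 difference of -0.48 that did not pass (adjusted p = 0.298 from edgeR).

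The effect of *SCC4* on *MXD4* was tested with and without WAPL. In *ΔWAPL* cells the further loss of SCC4 gave a log2 difference of 0.34 (SE 0.14), which did not pass the threshold (adjusted p = 0.1474 from edgeR). It passed with the GC correction, with the replicate block and the GC correction, and without replicate 3 of clone 3.3. The adjusted p under these alternatives was 0.02079, 0.04193 and 0.02935 from edgeR. The difference between the effects was -1.18 on the log2 scale (SE 0.24, adjusted p = 0.003779 from edgeR), and it passed the threshold under all 20 alternatives, with values from -1.36 to -1.05. Directly, *MXD4* was lower in *ΔWAPL*/*ΔSCC4* than in *ΔSCC4* by 1.67 on the log2 scale (SE 0.15, adjusted p = 2.351e-07 from edgeR). *MXD4* was the 1 member whose *SCC4* effect passed this test, where 11.3% of all genes tested did so. Other members passed it under some alternatives. *MYCL* passed without replicate 3 of clone 3.3 and in one fit over all 18 samples (adjusted p = 0.0401 and 0.02114 from edgeR). With the GC correction *MYCL*, *MAX* and *MNT* passed (adjusted p = 0.0006086, 0.01081 and 0.04245 from edgeR). With the replicate block and the GC correction *MYCL* and *MAX* passed (adjusted p = 0.0023 and 0.02133 from edgeR).

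*MXD3*, *MXI1*, *MNT* and *MLX* passed no test in the fits of the compared groups alone, but each did under some alternatives. *MXD3* (ENSG00000213347, chromosome 5, 176728462 to 176739758, minus strand), described as active around S phase, ranged from 11.59 to 24.12 CPM, and its exons overlap *RAB24* on the same strand. *MXI1* (ENSG00000119950, chromosome 10, 111967363 to 112047123, plus strand), an antagonist also known as MXD2, ranged from 29.91 to 51.66 CPM and was lowest on average in *ΔSCC4* (32.76 ± 3.53 CPM). Without replicate 1 of control A, *MXD3* was higher and *MXI1* lower in *ΔSCC4* (log2 differences of 0.69 and -0.53, adjusted p = 0.02928 and 0.02586 from edgeR). *MNT* (ENSG00000070444, chromosome 17, 2287367 to 2304398, minus strand), the constitutively expressed antagonist, was at 26.21, 28.09 and 31.24 CPM in clone 3.3, below the 32.43 to 40.7 CPM of control A, with a log2 difference of -0.37 (adjusted p = 0.2164 from edgeR). It passed there in one fit over all 18 samples, with all 6 controls and with the GC correction (adjusted p = 0.02778, 0.04685 and 0.02618 from edgeR). In *ΔWAPL*/*ΔSCC4* *MNT* was higher than in clone 3.3 by 0.35 on the log2 scale (adjusted p = 0.087 from edgeR). That passed in one fit, with the GC correction, with the block and the GC correction, and without replicate 3 of clone 3.3. The adjusted p there was 0.02971, 0.007914, 0.02117 and 0.0335 from edgeR. *MLX* (ENSG00000108788, chromosome 17, 40719090 to 40725257, plus strand) was at 63.94, 70.05 and 67.65 CPM in clone 1.14, below the 72.66 to 80.81 CPM of control B, with a log2 difference of -0.20 (adjusted p = 0.0759 from edgeR). This difference passed without replicate 3 of control B (adjusted p = 0.02296 from edgeR), and that over both clones without replicate 3 of control A (adjusted p = 0.04034 from edgeR).

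**Figure D2:**
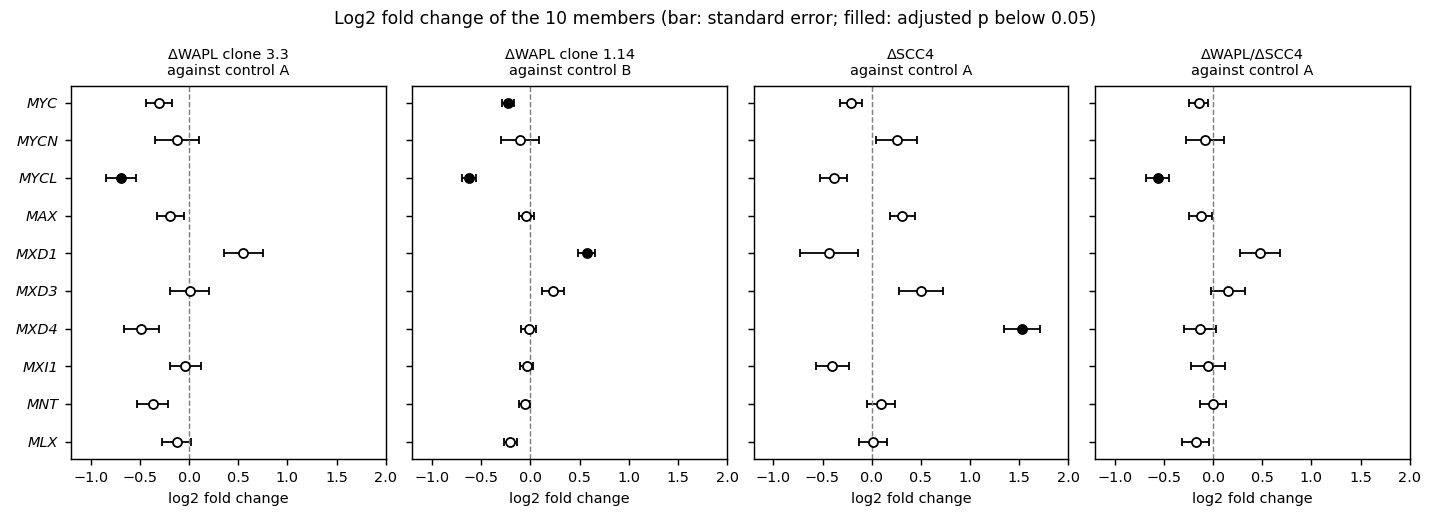
Log2 fold change (horizontal axis) of the 10 members (vertical axis) in 4 comparisons. Bars are standard errors and filled points passed an adjusted p of 0.05. *MYCL* lies left of 0 in all 4 comparisons, and *MXD4* reaches 1.53 in *ΔSCC4* and lies below 0 in the others. Control A is shared by 3 of the panels.

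Over both *ΔWAPL* clones 3 of the 10 members passed the threshold, *MYC* and *MYCL* lower and *MXD1* higher, where 17.7% of 12786 genes did so (8.56% higher and 9.13% lower). The median log2 difference of the members was -0.13, against 0.0048 for all genes. In clone 3.3 only *MYCL* passed, against 8.07% of all genes, and in clone 1.14 *MYC*, *MYCL* and *MXD1* passed, against 20.1%. The test of a difference between the clones called none of the 10 members (0 with edgeR, 0 with DESeq2, and 1, *MXD4*, at an unadjusted p below 0.05), against 2.65% of all genes. In *ΔSCC4* 1 member passed, against 9.49% of all genes, with a median log2 difference of 0.05 for the members and -0.0047 for all genes. In *ΔWAPL*/*ΔSCC4* against control A 1 member passed, against 7.95%, with a median of -0.10 for the members and 0.0006 for all genes. Against clone 3.3 the double mutant gave no call among the members (0 with edgeR, 0 with DESeq2, 2 at an unadjusted p below 0.05), against 10.6% of all genes. Against *ΔSCC4* 3 members passed, against 27.3%. Control A is shared by 3 of these comparisons. Members whose samples did not overlap between the groups numbered 2 over both clones (*MYC* and *MYCL*, apart in each set), beside 13.2% of all genes, 4 in clone 3.3, beside 23.3%, 4 in clone 1.14, beside 42.5%, 4 in *ΔSCC4*, beside 26.7%, and 2 in *ΔWAPL*/*ΔSCC4* against control A, beside 22.6%.

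In set A the replicate numbers of *ΔSCC4* and control A paired the samples, with correlations of their deviations of 0.741, 0.156 and 0.679. This pairing was read from these same expression values. Between clone 3.3 and control A the same numbers gave -0.566, -0.007 and -0.562. When the replicate number entered the fit of *ΔSCC4* as a block, 7 of the 10 members passed the threshold, where 46% of all genes did, against 9.49% without the block. *MXD4*, *MAX* and *MXD3* were higher, by 1.53, 0.31 and 0.50 on the log2 scale (adjusted p = 2.191e-08, 0.001518 and 0.002124 from edgeR). *MYC*, *MYCL*, *MXD1* and *MXI1* were lower, with log2 differences of -0.21, -0.38, -0.44 and -0.39 (adjusted p = 0.002675, 0.001461, 0.006719 and 0.003671 from edgeR). The replicates with the same number also shared their GC content, at 49.04%, 48.0% and 47.58% in control A and 49.33%, 48.36% and 48.18% in *ΔSCC4*. With the block and a correction for exon GC content together, the same 7 members passed. Over all genes 5711 passed with both, against 5754 with the block alone. The part of GC content in the pairing was not tested.

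Base composition moved with most of the comparisons. Across genes, which are not independent replicates, Spearman's rho between the log2 fold change and exon GC content was -0.294 over both *ΔWAPL* clones, -0.2 in clone 3.3, -0.33 in clone 1.14 and 0.282 in *ΔSCC4*. It was 0.235 in *ΔWAPL*/*ΔSCC4* against clone 3.3, -0.199 against *ΔSCC4* and 0.018 against control A. For the difference between the clones it was 0.191, for that between the *SCC4* effects -0.074, and for control B against control A -0.02. Exon GC content is 60.13% in *MXD4*, 54.58% in *MYCL*, 51.73% in *MYC* and 42.7% in *MXD1*. With a correction for it *MXD4* in *ΔSCC4* still passed the threshold, with a log2 difference of 1.40, as did *MYCL* and *MXD1* over both clones.

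Of the other partners, *MGA*, which joins MAX in a repressor complex, and *MLXIP* did not pass the threshold in the fits of the compared groups alone. With the replicate block both passed in *ΔSCC4*, where 46% of all genes did. *MLXIPL* was at 0.7397, 0.7989 and 1.075 CPM in *ΔWAPL*/*ΔSCC4* and at 0.299, 0.283 and 0.3987 CPM in clone 3.3, a log2 difference of 1.41 (adjusted p = 0.02236 from edgeR) on 4 to 19 reads per sample. DESeq2 did not call it. *ARRDC4*, a target of MondoA, rose by 0.82 on the log2 scale in clone 1.14 and did not pass in the other fits of the compared groups alone. Among 24 MYC cofactors and regulators no gene passed over both clones (0 with edgeR, 0 with DESeq2, 3 at an unadjusted p below 0.05), and the same count of 0 was found in *ΔSCC4* and in *ΔWAPL*/*ΔSCC4* against control A (2 and 1 at an unadjusted p below 0.05, 0 with DESeq2). Over all genes the shares were 17.7% over both clones, 9.49% in *ΔSCC4* and 7.95% in *ΔWAPL*/*ΔSCC4*. With the replicate block 12 of the 24 (50%) passed in *ΔSCC4*, beside 46% of all genes. Of 17 SIN3 and HDAC co-repressor genes 1 (5.88%) passed over both clones, beside 17.7% of all genes. It was *SAP130*, a SIN3 subunit, with a log2 difference of -0.24 (adjusted p = 0.03718 from edgeR).

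The known targets of MYC were examined as 3 lists. Of 34 ribosome biogenesis genes 1 passed over both clones, the nucleolar protein gene *NOLC1*, lower by 0.23 on the log2 scale, with a list median of -0.07. Of 35 metabolism and growth genes 3 passed, all lower: the amino acid transporter gene *SLC7A5* (-0.43), the cell cycle factor gene *E2F2* (-0.36) and the pyrimidine synthesis gene *CAD* (-0.31), with a list median of -0.07. Of 13 tested genes described as repressed by MYC, 2 were higher and 1 lower. *CCND1*, which encodes the G1 cyclin D1, was at 4.559 to 6.138 CPM in control A and 17.68 to 29.5 CPM in clone 3.3, and at 7.598 to 8 CPM in control B and 41.22 to 43.68 CPM in clone 1.14. It rose by 2.30 on the log2 scale (adjusted p = 8.452e-09 from edgeR). *CDKN1A*, which encodes the kinase inhibitor p21, rose by 1.25 (adjusted p = 0.004075 from edgeR), with 49.04, 15.2 and 15.45 CPM in clone 1.14. The receptor gene *DDR1* fell by 0.36. All 3 list shares are to be read beside the 17.7% of all genes.

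In *ΔSCC4* *NOLC1* was lower by 0.45 on the log2 scale (adjusted p = 0.02809 from edgeR). It was the only ribosome biogenesis gene to pass with edgeR (2 with DESeq2), where 9.49% of all genes passed. With the replicate block 18 of the 34 passed, 15 lower and 3 higher, as did 16 of the 35 metabolism and growth genes, 14 lower and 2 higher, beside 46% of all genes. Without the block, 2 of the 13 tested genes described as repressed by MYC passed, beside 9.49% of all genes. These were *CCND1*, higher by 2.86, and the stress gene *NDRG1*, higher by 1.28 on the log2 scale (adjusted p = 2.993e-06 and 0.0006015 from edgeR). Of the 35 metabolism and growth genes, described as activated by MYC, 1 passed. It was the cyclin D2 gene *CCND2*, higher by 1.10 (adjusted p = 0.008985 from edgeR). In *ΔWAPL*/*ΔSCC4* against control A 2 of the 13 repressed genes passed, beside 7.95% of all genes. *CCND1* rose by 1.91 and *CDKN1A* by 1.17 on the log2 scale (adjusted p = 1.486e-05 and 0.0007234 from edgeR). Of the 35 metabolism and growth genes 2 passed, *CCND2*, higher by 1.33, and the telomerase gene *TERT*, higher by 0.73 (adjusted p = 0.0004166 and 0.004144 from edgeR). No ribosome biogenesis gene passed there (0 with edgeR, 0 with DESeq2, 1 at an unadjusted p below 0.05), beside 7.95% of all genes. The 6 proliferation markers were *MKI67*, *PCNA*, *TOP2A*, *MCM2*, *CCNB1* and *CDK1*. Their summed CPM was 2584 to 2864 in *ΔSCC4* against 2966 to 3505 in control A, and 2824 to 3560 in control B, which overlaps *ΔSCC4*. None of the 6 passed in *ΔSCC4* against control A (0 with edgeR, 0 with DESeq2, 1 at an unadjusted p below 0.05), beside 9.49% of all genes. With the replicate block 5 passed, all lower, beside 46%. The summed CPM of 4 epithelial markers was 107.5 to 130.5 in *ΔWAPL*/*ΔSCC4* against 57.87 to 81.93 in control A. That of 5 fibroblast markers was 28.05 to 32.21 in *ΔWAPL*/*ΔSCC4*, against 12.64 to 13.87 in control A and 20.94 to 22.12 in control B. Nearly all of it was *COL1A1*, which passed the threshold (log2 difference from control A 1.15). *COL1A2*, *DCN*, *LUM* and *PDGFRB* were at 0.2601 CPM or less in all samples. The part of these markers in the differences was not tested.

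**Figure D3:**
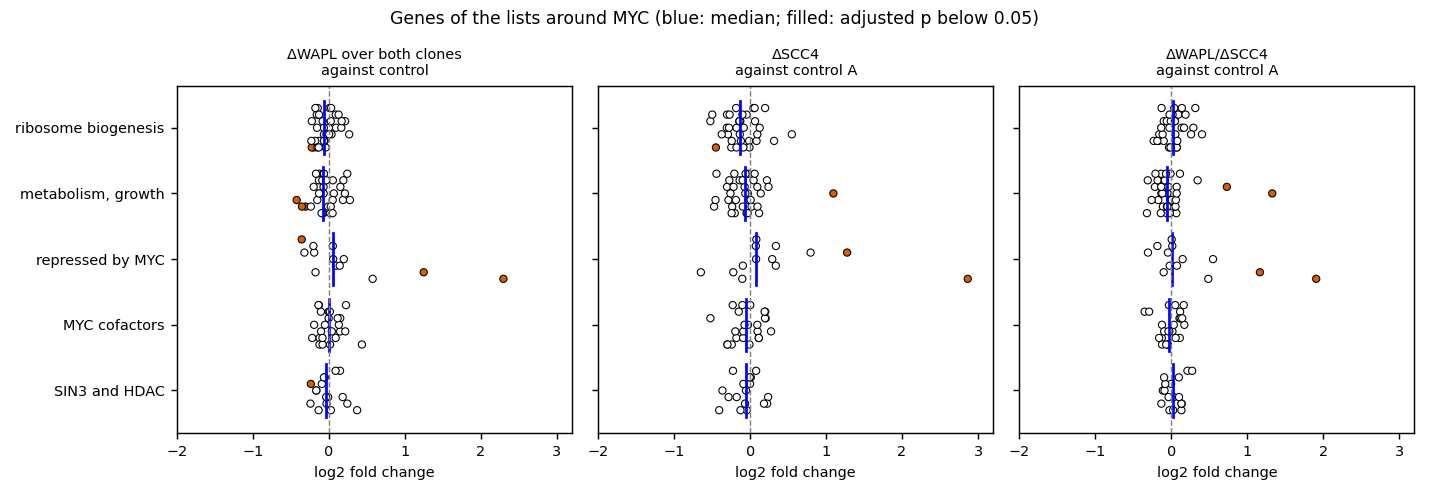
Log2 fold change (horizontal axis) of the tested genes of 5 lists (vertical axis) in 3 comparisons. Points are genes, filled where the adjusted p was below 0.05, and blue lines are list medians. The medians lie between -0.13 and 0.08, and the largest value is that of *CCND1*, 2.86 in *ΔSCC4*.

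Around the members, 116 other genes with a start site within 500 kb of a member's start were tested over both *ΔWAPL* clones, and 18 of them (15.5%) passed the threshold, beside 17.7% of all genes. In *ΔSCC4* the number was 7 of 113 (6.19%, beside 9.49%), and with the replicate block 45 (39.8%, beside 46%). Of the 12 tested neighbours of *MXD4* in *ΔSCC4*, *ZFYVE28*, whose start lies 156.5 kb upstream, was the only one to pass, with a log2 difference of 0.73 (adjusted p = 0.0418 from edgeR). *POLN*, with a start 20 kb downstream of that of *MXD4*, had a log2 difference of 0.75 that passed only with the block (adjusted p = 0.008791 from edgeR). *HAUS3*, whose start also lies 20 kb downstream, had a log2 difference of -0.36 (SE 0.27), which did not pass without the block. The median log2 difference of the 12 neighbours was 0.04. Within 500 kb of *MYCL*, 5 of 15 genes fell over both clones, and of the 6 around *MAX* the genes *FUT8*, *RAB15* and *FNTB* fell. Named after its values were seen, *RGS14*, 45.2 kb upstream of *MXD3*, fell by 2.22 on the log2 scale over both clones and by 1.84 in *ΔSCC4*. Its counts were low, at 4 to 39 reads per sample. *MXD3* itself did not pass over both clones. In *ΔSCC4* *MXD3* was higher by 0.50 with the replicate block (adjusted p = 0.002124 from edgeR) and did not pass without it when all replicates were kept.

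**Figure D4:**
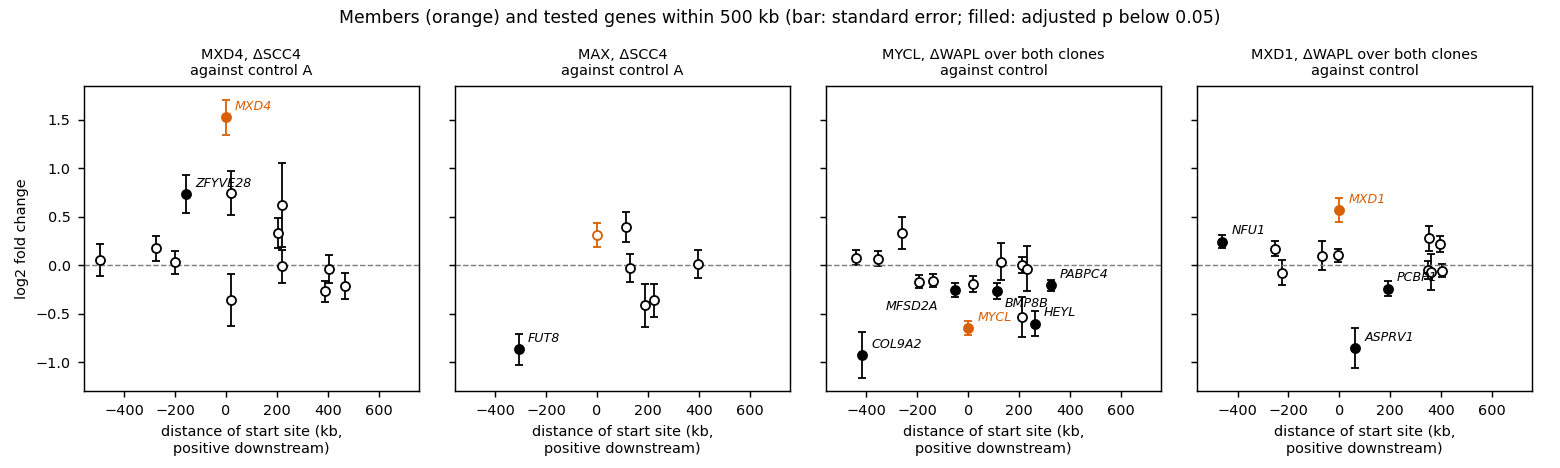
Log2 fold change (vertical axis) of 4 members (orange) and of the tested genes whose start lies within 500 kb (black), by distance from the start of the member in kb along its strand (horizontal axis). Bars are standard errors and filled points passed an adjusted p of 0.05. *MXD4* stands at 1.53 in *ΔSCC4*, above its 12 neighbours.

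*LRATD2*, whose start lies 1177 kb upstream of that of *MYC*, changed more than *MYC* did. It was at 3.517, 6.968 and 7.628 CPM in control A, 0.5202, 0.7127 and 1.106 CPM in *ΔSCC4*, 7.176, 4.457 and 3.057 CPM in clone 3.3, and 11.89, 18.25 and 8.766 CPM in *ΔWAPL*/*ΔSCC4*. In set B it was at 11.76, 11.5 and 11.2 CPM in control B and 7.475, 7.776 and 7.302 CPM in clone 1.14. The controls of the 2 sets thus did not overlap for *LRATD2* either, as for 19.4% of all genes. In *ΔSCC4* it fell by 2.95 on the log2 scale (SE 0.37, adjusted p = 0.0005389 from edgeR), from 7 to 16 reads per sample. The effect of *SCC4* differed with and without WAPL by 4.34 on the log2 scale (SE 0.57, adjusted p = 0.0001127 from edgeR). For *MYC* the same difference was 0.36 (SE 0.14), which did not pass the threshold (adjusted p = 0.1335 from edgeR).

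The genes whose log2 CPM followed each MYC gene most closely were sought over the 18 samples among 11562 genes, as a description of samples that share genotype, depth and GC content. For *MYC* these were *ATP1B2* (Pearson's r = 0.919), *MN1* (0.906) and *DLGAP3* (0.897). For *MYCL* they were *FGFR1* (0.971), *TUBA1A* (0.956) and *FN3K* (0.92). For *MYCN*, with its low counts, the highest values were lower, with *NEK6* at 0.759, *VCAN* at 0.724 and *TTC28* at 0.705.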

How the data were processed

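Strand-specific libraries of polyadenylated RNA from 18 HAP1 samples were sequenced, and the authors deposited counts of reads per gene made with HTSeq, without normalization. The submitters' processing notes name TopHat2 2.0.9, HTSeq, DESeq2 1.10.1 and hg19, while the study's methods give another version of TopHat. Symbols were found for 19637 of 20329 gene identifiers, and gene positions, exon lengths and exon GC content are those of GRCh37 in the current GENCODE annotation. Rows that name no gene (reads without a feature, ambiguous or not unique) held 20.3 to 22.6% of each table and were left out. Total counts on genes ranged from 10007646 to 20711127.

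Counts were tested with edgeR 4.0.16 in R 4.3.3 (glmQLFit and glmQLFTest) after TMM and filterByExpr, with Benjamini-Hochberg adjustment over all genes tested, at a threshold of 0.05. The comparison over both clones had the set as a covariate. Each standard error was obtained by dividing the size of the log2 fold change by the root of its F value. The libraries keep strand, but the strand setting of the counting is not given in the sources used here, so genes that overlap on opposite strands remain uncertain. The fits were tested on simulated data.

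The members and lists were chosen with earlier results of these data known. All 10 members are named. Of lists with up to 6 genes all that were matched in the count tables are named. Of longer lists the 3 largest rises and falls past the threshold over both clones are named, and the 2 and 2 in ΔSCC4 and ΔWAPL/ΔSCC4 against control A. For each MYC gene the 3 genes with the highest Pearson's r are named, at an average log2 CPM of at least 1. The alternatives were leaving out each replicate, the replicate number as a block, all 6 controls, a single fit of all 18 samples, a minimum of 10 counts in each sample or no filter, DESeq2 (1.42.0), and edgeR with DESeq2's size factors. A GC correction and the comparisons ΔWAPL/ΔSCC4 against ΔSCC4 and control B against control A were chosen after seeing the data. The replicate numbers come from the labels. The rule for pairing was that all 3 correlations of same-numbered deviations were over 0.1. Only ΔSCC4 against control A met it (0.156 or more, mean 0.525, against -0.261 between different numbers).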

Additional observations from a re-analysis of the deposited data

Results flagged for a closer look

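The effect of *SCC4* loss on *MXD4* differed between cells with and without WAPL. The difference between the effects was -1.18 on the log2 scale (adjusted p = 0.003779 from edgeR), with *MXD4* higher in 3 of 3 *ΔSCC4* samples than in all control A samples.

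Among the 6 controls, *MXI1* in replicate 1 of control A (34.26 CPM) lay apart from the others, which were at 45.95 to 51.16 CPM. Its gap to the nearest control was 0.732 of the range on the log2 scale, above Dixon's critical value of 0.625. It was 1 of 10 members tested in this way, and chance flags about 1 in 20.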

How the results depend on the processing

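The count of members past the threshold over both *ΔWAPL* clones stayed between 2 and 4 under 20 alternatives, and *MYCL* and *MXD1* passed under all of them. *MXD4* in *ΔSCC4* passed under all 14 alternatives, with log2 differences from 1.39 to 1.70. No member that passed the threshold, in the reported fit or under an alternative, did so with the opposite sign. Differences that passed in neither case did change sign, such as *MXI1* over both clones (-0.03, highest 0.04), *MYCN* in clone 1.14 (-0.10, highest 0.10) and *MXD4* in *ΔWAPL*/*ΔSCC4* against control A (-0.13, highest 0.06). In clone 3.3 the count of 1 member became 4 in one fit over all 18 samples, 0 with the replicate block, 3 with all 6 controls and 4 with the GC correction, and ranged from 0 to 2 when a replicate was left out (0 without replicate 2 of clone 3.3). In clone 1.14 the count of 3 became 1 in one fit. In *ΔSCC4* the count of 1 became 3 in one fit, 7 with the replicate block, 3 with the GC correction, 7 with both, and 1 to 3 without a replicate (3 without replicate 1 of control A). In *ΔWAPL*/*ΔSCC4* against control A it ranged from 0 to 2 without a replicate, and against clone 3.3 the count of 0 became 1 in one fit, 2 with the GC correction, 2 with the block and the GC correction, and 0 to 2 without a replicate. The count of 0 between the clones became 1 with the GC correction. The *SCC4* effect with and without WAPL gave 1 member, and 2 in one fit, 4 with the GC correction, 3 with the block and the GC correction and 1 to 2 without a replicate. The cause of these moves was not tested.

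Over all genes the counts moved by more than 1.5 times as follows. Clone 3.3 gave 1008 genes, and 1753 in one fit and 1597 with the GC correction. Clone 1.14 gave 2536, and 4315 with the block and the GC correction, and 1415 to 4820 without a replicate. *ΔSCC4* gave 1186, and 2556 in one fit, 5754 with the replicate block, 2568 with the GC correction, 5711 with both, and 662 to 2317 without a replicate. *ΔWAPL*/*ΔSCC4* gave 1001 against control A, 1753 with the GC correction and 586 to 1552 without a replicate, and against clone 3.3 1330, 2474 with the GC correction, 2244 with the block and GC correction and at least 861 without a replicate. Between the clones 339 genes became 211 with at least 10 counts in every sample, 173 with the replicate block and 683 with the GC correction. The *SCC4* interaction gave 1453, and 3211 with the GC correction and 2864 with the block added. *ΔWAPL*/*ΔSCC4* against *ΔSCC4* gave 3447, and at least 2080 without a replicate. Control B against control A gave 80, and 168 with DESeq2, 127 without a filter, 408 in one fit, 232 with the GC correction and 0 without replicate 2 of control A.

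Apart from *ΔSCC4* against control A, no comparison met the rule for pairing, with all 3 correlations over 0.1. The mean correlation was -0.378 in clone 3.3. In clone 1.14 it was 0.218, and all 3 correlations were positive, with the lowest at 0.066. In these other comparisons the block ended the call of *MYCL* in clone 3.3 (adjusted p = 0.05798 from edgeR) and changed no other call of a member. Low depth limits *MYCN*, *MLXIPL*, *LRATD2* and *RGS14*, with fewer than 100 reads in some or all samples.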
